A study of Mus musculus with 7 samples.

Results

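YAP and TAZ, the co-activators at the end of the Hippo pathway, were followed here at the level of their own transcripts, Yap1 and Wwtr1, together with the transcripts of the 4 TEAD factors through which they act, Tead1, Tead2, Tead3 and Tead4, and of Vgll4, a competitor for TEAD. All probes that the array lists under these 7 gene symbols were taken, which gave 9 of 25697 probes: 1 each for Yap1, Wwtr1, Tead1, Tead2, Tead3 and Vgll4, and 3 for Tead4. The tissue came from mouse incisors and was the labial cervical loop, the epithelial pocket at the growing end of the tooth that keeps the stem cells of the enamel organ. The 3 control samples carried floxed alleles, written Yap/Tazf/f, and no Cre. The 4 mutant samples carried the same alleles and K14CreER, a tamoxifen-inducible Cre under the keratin 14 promoter, which is active in epithelium. Mice of both genotypes were 8 weeks old, received tamoxifen (5 mg) on 2 days in a row, and gave tissue 48 hours after the last injection. Total RNA of each sample was hybridised to 1 Illumina array, with 2 control and 2 mutant arrays on chip 1 and 1 control and 2 mutant arrays on chip 2. Because no control carried the Cre, effects of the Cre and of the deleted alleles cannot be told apart. Whether each sample came from its own animal is not labelled, so the spread behind every p-value is that between samples and may be technical.

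YAP and TAZ have no DNA-binding domain of their own. When the kinases of the Hippo pathway are inactive they enter the nucleus, bind TEAD proteins, which recognise short DNA sites with the core GGAATG, and switch on genes of growth and of the cytoskeleton. VGLL4 occupies the same TEAD surface with its Tondu motifs and so opposes them. In stratified and dental epithelia, nuclear YAP is known from basal and proliferating cells.

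The start-site windows of the family are shown because they hold the core site of the family's own DNA-binding partners. RefSeq windows of GRCm38.p6, each running from 250 bases before to 50 bases after an annotated start, were at hand for 5 of the 7 genes, in 8 windows (2 for Wwtr1, 3 for Tead3). The letters GGAATG, read on both strands (CATTCC on the other), occurred in 6 of the 8 windows and in 4 of the 5 genes, with Tead2 as the gene without them. Of all 32851 windows 14.7% held these letters, and of the 9690 windows with at least 60% G and C 9.4% did; by gene, 16.6% of 27025 held them in at least 1 window. The 60 bases around each match are printed on the gene's strand, in lower case with the matching letters in capitals. They come from chr9:8004705-8004764 for Yap1, chr3:57576014-57576073 for Wwtr1, where both windows share the match, chr6:114969253-114969312 for Vgll4, and chr17:28350955-28351014 and chr17:28350691-28350750 for starts 1 and 2 of Tead3, all on the minus strand.
Yap1: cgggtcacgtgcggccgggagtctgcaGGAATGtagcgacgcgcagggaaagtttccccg
Wwtr1: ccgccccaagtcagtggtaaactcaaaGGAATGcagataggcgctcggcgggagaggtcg
Vgll4: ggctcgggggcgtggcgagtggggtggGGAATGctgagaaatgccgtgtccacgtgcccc
Tead3 start 1: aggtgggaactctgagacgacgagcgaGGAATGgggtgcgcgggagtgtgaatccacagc
Tead3 start 2: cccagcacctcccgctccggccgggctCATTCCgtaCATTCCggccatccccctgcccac
The first matching base lay 141 bases before the start in Yap1, 136 before the nearer start in Wwtr1 and 82 before it in Vgll4. In the second Tead3 window a pair of matches on the opposite strand stood 3 bases apart, and a further match on the gene's strand, not printed, began just after the start. A match of 6 letters describes the sequence and shows no binding.

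Among the family, the probe of Yap1 changed between the genotypes and the other 5 tested probes did not pass the test. A probe was tested where its detection p-value, which compares it with the negative control beads of its array, was under 0.05 on at least 3 arrays, and this left 14666 probes on the array and 6 of the 9 here. The 3 probes of Tead4 were not tested. Limma with the chip as a term called 1 of the 6 at an adjusted p under 0.05, against 0.0614% of all tested probes (0.0273% lower and 0.0341% higher in mutants). The same probe was also the only 1 of the 6 whose groups did not overlap, against 6.55% of all tested probes (3.27% lower and 3.28% higher), and the only 1 with an unadjusted p under 0.05, against 8.00% (3.69% lower and 4.32% higher). The median difference of the 6 probes, mutant minus control, was -0.066 on the log2 scale and that of all tested probes 0.00025.

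**Figure D1:**
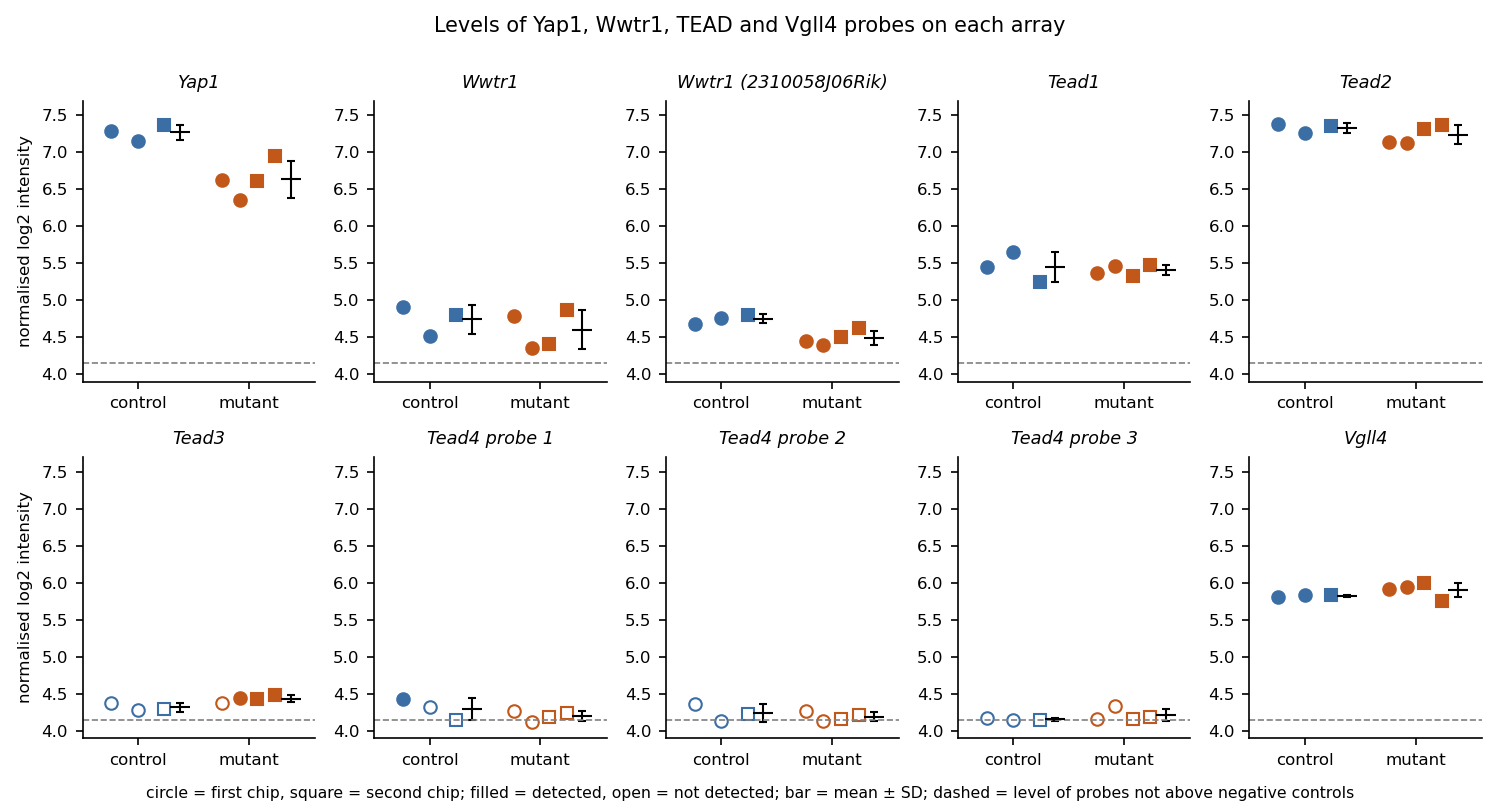
Normalised log2 intensity (y axis) of each probe on each of the 3 control and 4 mutant arrays (x axis), with an error bar for the mean and SD of each group, circles for the first chip, squares for the second, filled symbols for detected and open ones for undetected values; the dashed line is the level of probes not above the negative controls. Yap1 lies lower on all 4 mutant arrays, while the 3 Tead4 probes lie at the dashed line in both groups.

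Yap1 encodes the founding co-activator of the pathway and was one of the targeted genes. Its normalised log2 intensity was 7.29, 7.16 and 7.37 on the control arrays 1 to 3 and 6.62, 6.36, 6.61 and 6.96 on the mutant arrays 1 to 4. The groups did not overlap, and the highest mutant value, on array 4, lay below the lowest control value, on array 2. The log2 level of Yap1 fell by 0.68 in mutants (95% interval -0.93 to -0.42, SE 0.12, limma adjusted p = 0.0443), from 7.27 ± 0.10 (SD, n = 3) to 6.64 ± 0.25 (SD, n = 4), and it ranked sixth by p among the tested probes. On a linear scale above the level of undetected probes, the normalised Yap1 signal was 137 ± 11.1 (SD, n = 3) in controls and 83.0 ± 17.6 (SD, n = 4) in mutants. By this measure, which holds no chip term, 60.4% of the control signal was left. The percentage depends on the normalization. Before it, the mean intensities were 205 in controls and 168 in mutants, with array medians of undetected probes at 73.4 to 76.2. In bulk tissue, fewer cells with a transcript and less of it per cell cannot be told apart. Within the chips the difference was -0.74 on chip 1 and -0.58 on chip 2.

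The deposited intensities of Yap1, before any normalization, show the same order within each chip. On chip 1 the controls read 195 ± 10.2 and 185 ± 9.13 (standard error over 24 beads each) and the mutants 153 ± 6.22 (27 beads) and 151 ± 4.79 (41 beads). On chip 2 the control read 235 ± 10.6 (34 beads) and the mutants 175 ± 5.05 (38 beads) and 192 ± 9.89 (30 beads). Across chips the groups overlap before normalization, since mutant 4 exceeds control 2. An exact two-sided permutation test of the normalised group means placed the real split among the 2 most extreme of 35 (p = 0.0571, where 0.0286 is the smallest possible), and over the 18 splits within chips the exact p was 0.0556, the smallest these allow. The Yap1 call was kept without mutant replicate 4 (limma adjusted p = 0.0493) and lost when any other array was left out, with adjusted p-values of 0.0844 to 0.216. The difference stayed between -0.74 and -0.42 in all settings tried.

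**Figure D2:**
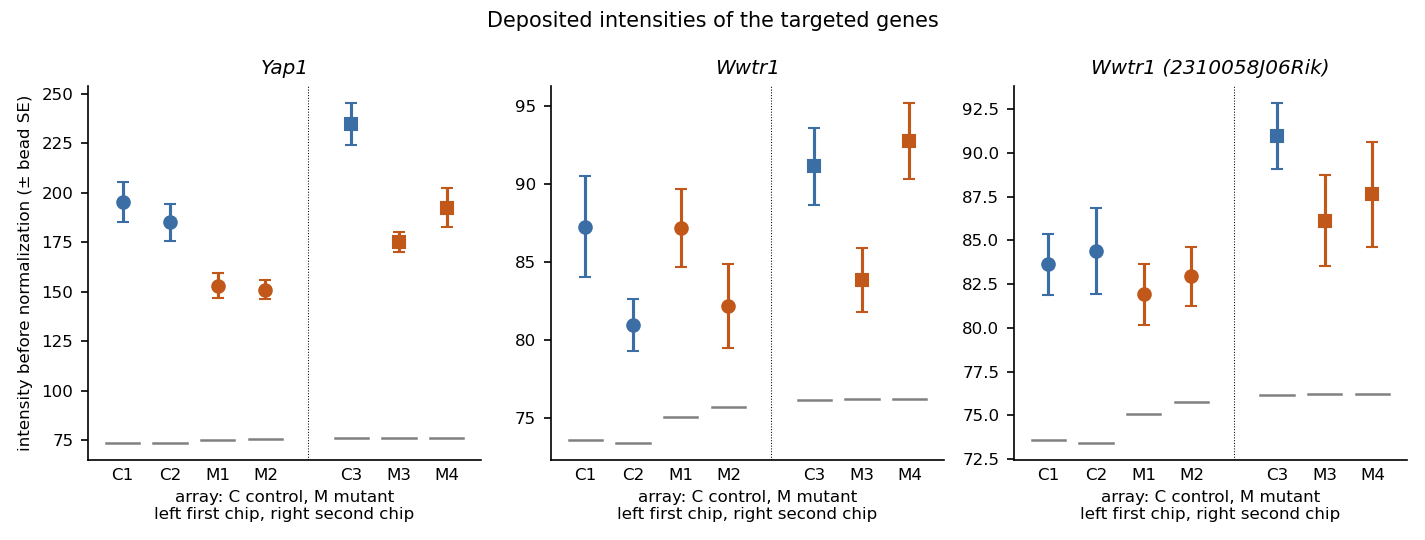
Deposited intensity before normalization (y axis, with the standard error over beads) on each array (x axis, C control and M mutant with replicate number, the first chip left of the dotted line) for the probe of Yap1 and both probes of Wwtr1; grey dashes give the median intensity of undetected probes on the same array. Yap1 stands far above the dashes and is lower in mutants within each chip, while both Wwtr1 probes lie close above the dashes, which run from 73.4 to 76.2; the 3 y axes differ and do not start at 0.

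Wwtr1 encodes TAZ, the paralog of YAP and the other targeted gene. Its probe measured 4.91, 4.53 and 4.81 on control arrays 1 to 3 and 4.79, 4.36, 4.41 and 4.87 on mutant arrays 1 to 4. The groups overlapped, with only mutant arrays 2 and 3 below all controls. The difference was -0.15 (SE 0.14, 95% interval -0.44 to 0.14, limma adjusted p = 0.819), from 4.75 ± 0.20 (SD, n = 3) to 4.61 ± 0.26 (SD, n = 4). Wwtr1 was detected on all 7 arrays but lay only 0.60 on the log2 scale above the level of undetected probes in controls, against 3.12 for Yap1. With the offset of 16 added during background correction, a Wwtr1 loss in the proportion of Yap1 (60.4% left after normalization) would read as -0.21. This value lies inside the interval, as does 0. A loss of that size was thus not detectable with these arrays and this probe.

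A further probe bears on Wwtr1. The array lists it as 2310058J06Rik, which the RefSeq table gives as an older name of Wwtr1, so it falls outside the choice by symbol and was added after its values were seen. It was detected on all 7 arrays and measured 4.68, 4.77 and 4.80 on control arrays 1 to 3 and 4.45, 4.40, 4.51 and 4.62 on mutant arrays 1 to 4. All 4 mutant arrays lay below the 3 controls, as in 3.27% of all tested probes (6.55% had no overlap in either direction). Its difference was -0.27 (SE 0.11, 95% interval -0.50 to -0.047), with an unadjusted limma p of 0.0202 and an adjusted p of 0.538, so it did not pass over all probes. An unadjusted p under 0.05 with a lower level in mutants was found for 3.69% of all tested probes. Within the chips it was -0.30 and -0.23, and over all settings tried it kept its sign and did not pass. A loss in the proportion of Yap1 would read as -0.21 for this probe too. The 2 Wwtr1 probes therefore share a sign on both chips, with neither passing the test. In the authors' deposited table the q-value of the probe named Wwtr1 is 0.575, that of 2310058J06Rik 0.299 and that of Yap1 0.00616. Limma on the series matrix values gave Yap1 an adjusted p of 0.118 with the chip term and 0.0787 without it.

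Which exons are floxed, and where on the transcripts the probes lie, is not given in the sources at hand. A probe on exons that remain after recombination may miss the deletion.

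**Figure D3:**
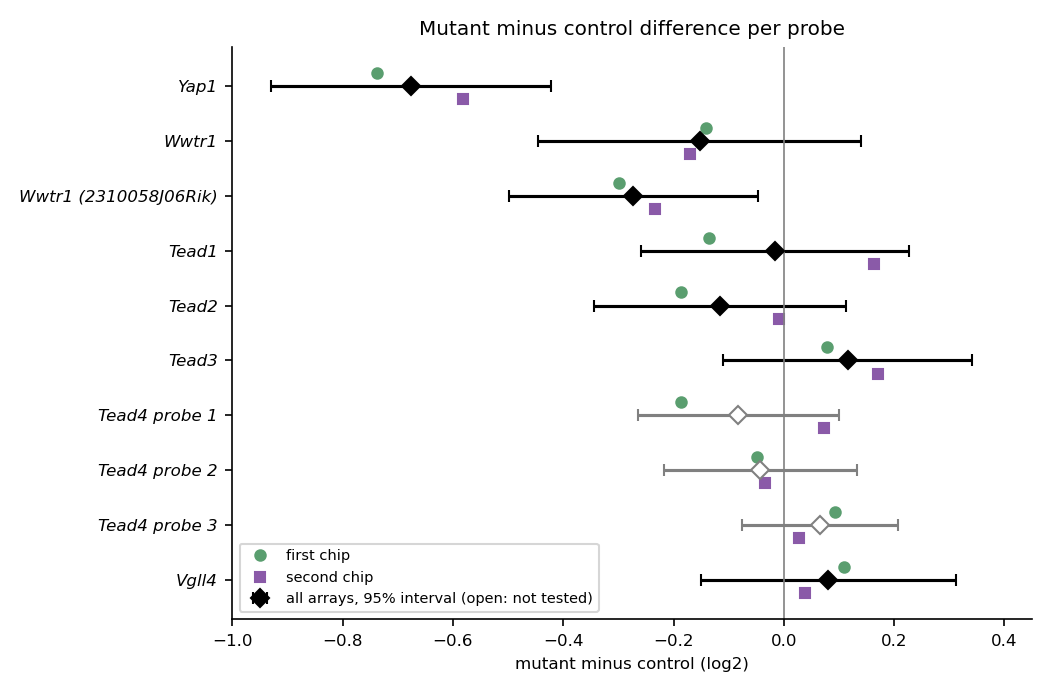
Mutant minus control difference on the log2 scale (x axis) for each probe (y axis), with the 95% interval from limma over all 7 arrays as a diamond and bar (open and grey where a probe was not tested) and the difference on the first chip (circle) and the second (square) alone. The interval of Yap1 stays below 0 on the left, that of the probe listed as 2310058J06Rik also does although it did not pass over all probes, and those of the TEAD probes and Vgll4 span 0.

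The TEAD genes encode the DNA-binding partners, and their probes ranged from clearly detected to background. Tead2, which is prominent in embryonic tissue, measured 7.38, 7.26 and 7.36 on control arrays 1 to 3 and 7.14, 7.13, 7.32 and 7.38 on mutant arrays 1 to 4. The mutant arrays of the first chip lay below all controls and those of the second chip among them. The difference was -0.12 (SE 0.11, 95% interval -0.34 to 0.11, limma adjusted p = 0.826), with -0.19 on chip 1 and -0.0088 on chip 2. Under median scaling it was 0.015, with the opposite sign.

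Tead1, the widely expressed member of the family, measured 5.45, 5.65 and 5.24 on control arrays 1 to 3 and 5.37, 5.46, 5.33 and 5.48 on mutant arrays 1 to 4. All mutant values lay within the range of the controls. The difference was -0.016 (SE 0.12, 95% interval -0.26 to 0.23, limma adjusted p = 0.984), and it was -0.14 on chip 1 and 0.16 on chip 2. Its sign also turned under median scaling (0.063) and without control replicate 2 (0.063) or mutant replicate 1 (0.038).

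Tead3 entered the test through mutant arrays alone. Its detection p-values were 0.0652, 0.169 and 0.140 on control arrays 1 to 3 and 0.0576, 0.0251, 0.0201 and 0.0188 on mutant arrays 1 to 4, so it was detected on 0 of 3 control and 3 of 4 mutant arrays. Of all tested probes 1.13% had no detected control array and at least 3 detected mutant arrays. Its normalised log2 intensity was 4.38, 4.28 and 4.29 in controls and 4.38, 4.44, 4.43 and 4.49 in mutants, and mutant array 1 fell among the controls. The difference of 0.12 (SE 0.11, 95% interval -0.11 to 0.34, limma adjusted p = 0.820) did not pass, and its interval held 0.

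Tead4, best known from the trophectoderm of the early embryo and from muscle, was not well above background. Its 3 probes were detected on 1, 0 and 0 of the 7 arrays, the exception being control array 1, where the detection p-value of probe 1 was 0.0489. Normalised log2 intensities of the 3 probes ran from 4.13 to 4.42 over the controls and from 4.12 to 4.33 over the mutants, around the level of 4.15 that undetected probes had. The untested differences were -0.082, -0.043 and 0.066. No level can be set from them.

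Vgll4, the TEAD competitor, measured 5.80, 5.83 and 5.84 on control arrays 1 to 3 and 5.91, 5.94, 5.99 and 5.76 on mutant arrays 1 to 4. Mutant arrays 1 to 3 lay above all controls and mutant array 4 below them. The difference was 0.081 (SE 0.11, 95% interval -0.15 to 0.31, limma adjusted p = 0.886), with 0.11 on chip 1 and 0.038 on chip 2. The control spread of 0.018 (SD, n = 3) was smaller than that of the mutants, 0.10 (SD, n = 4). Of the related family members, Vgll1 was detected on 0 of 3 control and 2 of 4 mutant arrays. Vgll1 was not tested, and its difference was 0.19 (SE 0.076). Vgll2 was detected on none of the arrays, and no probe was matched to Vgll3 by its symbol or an older one.

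The intervals set what these arrays exclude. As ratios of mutant to control on the scale with the offset, the 95% intervals ran from 0.788 to 1.08 for Tead2, from 0.836 to 1.17 for Tead1 and from 0.901 to 1.24 for Vgll4. For Yap1 the interval ran from 0.525 to 0.747. A ratio as low as that of Yap1, 0.626, lay outside the intervals of Tead1, Tead2 and Vgll4 on this scale, and each of these 3 intervals held a ratio of 1. The offset compresses the ratio of a dim probe more than that of a bright one, and this touches Tead1 and Vgll4 more than Tead2, which lay 3.18 above the level of undetected probes against 1.30 for Tead1 and 1.67 for Vgll4.

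Patterns over the arrays are a description, since all probes share the same libraries and the list was ranked by the likeness itself. After removal of the chip means, probes among those most like Yap1 over the 7 arrays belonged to Smarca2, an ATPase of the SWI/SNF chromatin remodeller (Pearson r 0.996), Freq, the older name of the calcium sensor gene Ncs1 (0.996), the nuclear receptor gene Nr4a2 (0.993) and Mepce, the capping enzyme of 7SK RNA (0.988). Of 14665 other tested probes, 145 reached an r of 0.9 and 161 lay at -0.9 or below. These 4 genes had differences of -0.22 to -0.33, and none passed (limma adjusted p = 0.457 to 0.633). Freq and Nr4a2 each measured 4.47 in controls, and 4.25 and 4.24 in mutants, where the lowest detected value of any array was 4.35. Both thus entered the test through the control arrays alone, and this filter favours a pattern like that of Yap1. The level of undetected probes was 4.15. Within the family, r with Yap1 was 0.82 for Tead2, 0.64 for Wwtr1, 0.15 for Tead1, -0.67 for Tead3 and -0.75 for Vgll4. These values hold the group difference itself. With the genotype means removed as well, r was 0.61 for Tead2, 0.91 for Wwtr1, 0.21 for Tead1, 0.37 for Tead3, whose sign turned, and -0.85 for Vgll4. These values rest on 4 residual degrees of freedom, and how many other probes reach them was not counted.

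Upstream of the family, the Hippo kinases and their regulators were given as a list of 26 genes, of which 16 could be tested. None passed over all probes, and the median difference was -0.024. At an unadjusted p under 0.05, 1 was higher and 1 lower, where 4.32% and 3.69% of all tested probes were. Stk3, the MST2 kinase that starts the cascade, measured 5.48 to 5.81 in controls and 5.68 to 6.04 in mutants, a difference of 0.33 (SE 0.12, limma adjusted p = 0.476). Mob1b, a co-activator of the LATS kinases that the array lists as Mobkl1a, measured 5.88 to 6.08 and 5.39 to 5.80, groups that did not overlap, as in 6.55% of all tested probes, a difference of -0.33 (SE 0.13, limma adjusted p = 0.506). The tumour suppressor gene Nf2, which recruits LATS to the membrane, differed by 0.20 (SE 0.13). Lats2 was detected on none of the arrays, and no probe was matched to Lats1 by its symbol or an older one.

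Of 14 other nuclear partners of YAP and TAZ, 8 were tested and none passed, with a median difference of -0.048. At an unadjusted p under 0.05, 1 was higher and 1 lower, against 8.00% of all tested probes in either direction. Runx2, the osteoblast factor that TAZ can co-activate, measured 4.39 to 4.57 in controls and 4.61 to 4.92 in mutants without overlap, as 6.55% of all tested probes did, a difference of 0.30 (SE 0.11, limma adjusted p = 0.491), and its other probe differed by 0.13 (SE 0.13). Smad3, a transducer of TGF-beta signals, measured 6.81 to 7.17 and 6.63 to 6.82, a difference of -0.30 (SE 0.12, adjusted p = 0.532), with -0.47 on chip 1 and -0.041 on chip 2.

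Of 22 genes often used as a YAP and TAZ target signature, 13 were tested and none passed, with a median difference of 0.0068. At an unadjusted p under 0.05, 0 were higher and 1 lower, a share near the 8.00% of all tested probes. The lower gene was Ccn1, listed as Cyr61, a matricellular protein. It measured 5.72, 5.42 and 5.37 on control arrays 1 to 3 and 5.05, 4.89, 4.90 and 5.36 on mutant arrays 1 to 4, groups that missed overlap by the narrow gap between control array 3 and mutant array 4, where 6.55% of all tested probes had none. The difference was -0.46 (SE 0.13, limma adjusted p = 0.375), with -0.61 on chip 1 and -0.24 on chip 2, and the other Ccn1 probes differed by -0.34 and -0.22. Ccn2, listed as Ctgf and known as a target of the same kind, measured 4.53 to 5.09 in controls and 4.51 to 5.22 in mutants, a difference of 0.032 (SE 0.15), with -0.20 on chip 1 and 0.37 on chip 2. Nt5e, an ectonucleotidase, differed by -0.24 (SE 0.12, limma adjusted p = 0.634), and its second probe by 0.072.

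**Figure D4:**
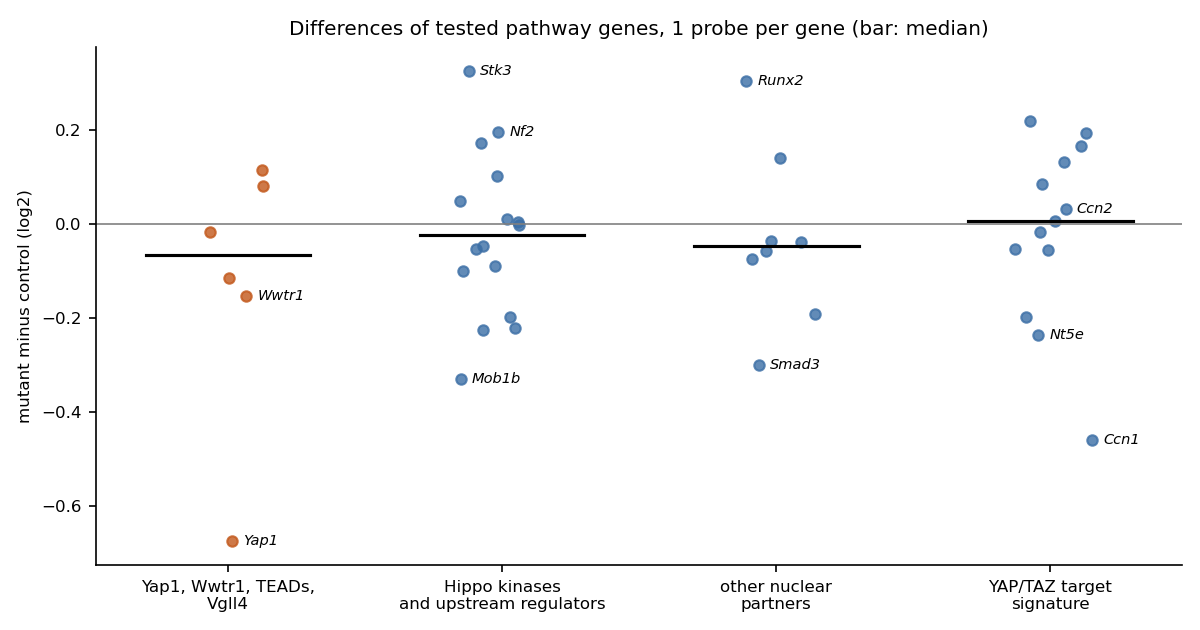
Mutant minus control difference on the log2 scale (y axis) of each tested gene, 1 probe per gene, for the family and the 3 pathway lists (x axis), with a bar at each list's median. Yap1 at -0.68 lies below every gene of the other lists, and the medians of the 3 pathway lists lie between -0.048 and 0.0068.

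The labelled tissue carried its defining markers. All 11 measured genes of the dental epithelium list were detected on at least 1 array, and the summed normalised intensity of the list was 6775 to 7028 in controls and 6782 to 7297 in mutants. Among its brightest, the signalling gene Shh had a difference of -0.33 and Krt14, whose promoter drives the Cre, -0.0090, and neither passed. Of 16 measured markers of mesenchyme, odontoblasts and bone, 11 were detected on at least 1 array, and Pdgfrb, Twist1, Msx1, Postn and Dmp1 were not. Their summed level was 713 to 823 in controls and 832 to 1007 in mutants, without overlap, where 6.55% of all tested single probes had none. Ameloblast markers summed to 412 to 499 and 465 to 1167 (3 of 5 detected), macrophage and leukocyte markers to 316 to 416 and 373 to 515 (10 of 10), endothelial markers to 166 to 175 and 163 to 172 (4 of 8), and Schwann cell and nerve markers to 155 to 159 and 157 to 190 (3 of 6). In the mesenchymal list all 10 tested genes had a positive difference and none passed. The differences ran from 0.0059 to 1.26, with a median of 0.11 against 0.00025 for all tested probes. Of the 10, 3 had an unadjusted limma p under 0.05, against 4.32% of all tested probes that did so and were higher. All 3 tested ameloblast genes, which encode enamel matrix proteins, had an unadjusted limma p under 0.05, against 8.00% of all tested probes, and none passed. Ambn differed by 1.12 (SE 0.24, limma adjusted p = 0.160), Enam by 0.90 (SE 0.18, adjusted p = 0.134) and Amelx by 0.46 (SE 0.17, adjusted p = 0.486). The chips differed in size, with the larger rise on chip 2, which held 1 control array. On chip 1 Ambn was higher by 0.57, against 1.94 on chip 2. Enam rose by 0.52 there and by 1.46 on chip 2. The chip 1 difference of Amelx was only 0.061, and that of chip 2 was 1.07. Its level on mutant array 2 (8.15) lay below control arrays 1 and 2 (8.17 and 8.35). All 9 tested macrophage genes had a positive difference, with a median of 0.24, and 1 passed, against 0.0341% of all tested probes called higher. This was Lyz2, listed as Lyzs, a lysozyme of macrophages, which rose by 0.74 (SE 0.12, limma adjusted p = 0.0443). The gene had 3 probes, of which 2 were tested, and the other tested probe was not called. These sums include the background offset of each probe. Their part in the Yap1 difference was not tested.

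**Figure D5:**
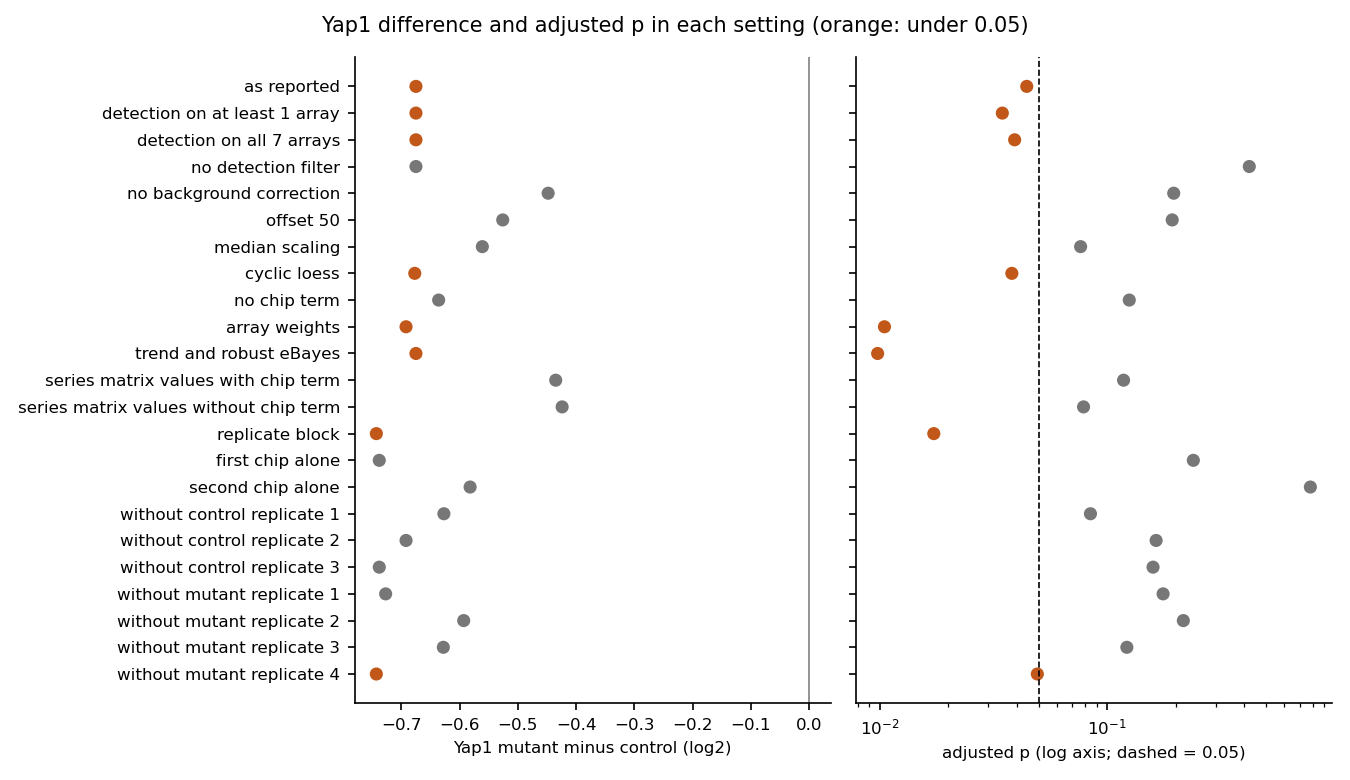
Yap1 difference (left panel, x axis, log2) and limma adjusted p (right panel, x axis, logarithmic, with a dashed line at 0.05) as reported and in each of 22 alternative settings (y axis), orange where the adjusted p is under 0.05. The difference lies between -0.74 and -0.42 throughout, while the adjusted p ranges from 0.0098 to 0.781.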

How the data were processed

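The deposited intensity values are mean bead brightnesses without normalization, per the file headers. A detection p-value per probe and array, the standard error over beads and the number of beads were deposited beside them, per the file headers. The authors also deposited log2 values with p-values, q-values and a fold score per probe, which was not used. The name of their table gives ComBat, the array ID and a sample type covariate. How that covariate bears on their q-values was not tested. The sources used here do not name their software. Biotin-labelled cRNA was prepared with a kit from Nugen, per the labels' protocols.

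From the intensities, limma 3.58.1 in R 4.3.3 corrected the background by normal-exponential convolution with an offset of 16 and normalised by quantiles on the log2 scale. Each probe's model (lmFit, then eBayes) held genotype and chip over the 7 arrays, with 4 residual degrees of freedom. Two-sided p-values were adjusted by the Benjamini-Hochberg method over 14666 probes, and 0.05 was the threshold. Between 13767 and 14752 probes were detected per array, and the number of arrays limits the precision. The level of undetected probes is the median of probes with a detection p of at least 0.5.

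The fit was tested on simulated data. Symbols are those of the array, with older ones matched through the RefSeq table, whose promoter windows were also used. The members and lists were chosen with earlier results of these data known. Named are all member probes, in each list the called genes or otherwise the 2 of smallest p, the genes Ccn1, Ccn2, Lats1, Lats2, Nf2, Vgll1 and Vgll3, the 5 genes most like Yap1 and up to 3 of the brightest markers of a list; Lyz2 and the probe 2310058J06Rik were added after their values were seen. Some genes that this rule names are not reported here. Other filters, background corrections, scalings, fits and left-out arrays were tried.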

Additional observations from a re-analysis of the deposited data

Results flagged for a closer look

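For 1 of the 9 probes, a single mutant array stood apart from the other mutant arrays. The third Tead4 probe measured 4.33 on mutant array 2 and 4.16, 4.16 and 4.19 on mutant arrays 1, 3 and 4, and the gap to the nearest value took 0.851 of the whole range, above Dixon's critical value for 4 samples. The probe was not detected on that array or on any other, and the other Tead4 probes measured 4.12 and 4.13 there. By chance such a gap arises in about 1 of 20 groups.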

How the results depend on the processing

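The Yap1 difference kept its sign in all 22 settings and its call in 7 of them. It was no longer called without the detection filter (-0.675), without background correction (-0.448), with an offset of 50 (-0.526), with median scaling (-0.561), without the chip term (-0.636), in the series matrix values with the chip term (-0.435) or without it (-0.424), on the first chip alone (-0.738) and on the second alone (-0.582); the cause was not tested, beyond the fewer arrays of a single chip. In each of these 9 settings 0 probes of the family were called. With single arrays left out the Yap1 difference ran from -0.743 to -0.593, and 0 to 1 probes of the family were called. Over all probes the count of 9 became 0 without the detection filter, without background correction, with the offset of 50 and in both fits of the series matrix values (1914, 1274, 1282, 1750 and 1845 probes had an unadjusted p under 0.05), 1 on the first chip alone, and 0 to 14 with single arrays left out. Wwtr1, its probe listed as 2310058J06Rik, Tead3 and Vgll4 kept sign and side of the threshold wherever they were tested. Tead1 turned to 0.0625 under median scaling, 0.163 on the second chip alone, 0.0631 without control replicate 2 and 0.0375 without mutant replicate 1 (-0.136 without control replicate 3), and Tead2 to 0.0153 under median scaling, none of them called. Median scaling called 9 probes higher and 0 lower over the array, against 5 and 4 as reported, and put the median of all tested probes at 0.068, and the medians of the Hippo list and of the other nuclear partners at 0.0884 and 0.0605. The replicate number as a block gave Yap1 -0.743 (limma adjusted p = 0.0173) and 9 calls over all probes. Same-numbered samples correlated at -0.019, 0.16 and 0.15 in their deviations from the group means, and differently numbered ones at -0.14 to 0.11. These deviations still hold the chip, which same-numbered samples share, so the values cannot decide whether the samples are paired. The main fit did not pair them. The planned comparison of member proteins was not run, because protein sequences were not used here. For dim probes such as those of Wwtr1 and Tead3, signal over background limits what can be seen.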

Other observations

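The array also carries 2 probes under the symbol Taz, which is the name of the TAZ protein but in the RefSeq table the gene symbol of tafazzin, a mitochondrial enzyme of cardiolipin metabolism. They were therefore not counted with Wwtr1. The first probe measured 6.12 ± 0.20 (SD, n = 3) in controls and 6.10 ± 0.17 (SD, n = 4) in mutants, a difference of -0.037 (SE 0.13, limma adjusted p = 0.961). The second measured 6.87 ± 0.13 (SD, n = 3) and 6.67 ± 0.25 (SD, n = 4), a difference of -0.23 (SE 0.13, adjusted p = 0.675), with -0.40 on chip 1 and 0.037 on chip 2.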
